A study of Mus musculus with 2 samples.

Results

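The genes described here are 9 transcription factors known for setting the identity of myeloid cells, Maf, Spi1, Irf8, Irf4, Cebpb, Cebpa, Klf4, Zeb2 and Nr4a1. They were chosen as a list of names, by no threshold on measured values, and make up 9 of the 16819 gene symbols counted in CD45+ cells of the mouse dorsal root ganglion (DRG). Cells from BALB/cAnNRj wild-type, naive mice, 3 male and 3 female, were labeled with a hashtag antibody per animal, sorted as CD45+DAPI- and pooled in a single lane of the 10x 3′ v3 assay. About 40 DRGs of the cervical, thoracic and lumbar levels were pooled per digest, and no animal was injured or treated. Levels come from the cells with a male hashtag, and the 1073 cells with a female hashtag served as a second set. Each hashtag was taken as a mouse, and mice are the replicates (n = 3 per sex). Female monocytes numbered 4, 6 and 5 per mouse, and since sums of under 5 cells were left out, female comparisons with monocytes rest on 2 monocyte sums, those of female mice 2 and 3. Xist was at 0.236 to 2.12 CPM (UMIs of a gene relative to all UMIs summed with it) in the male and 495 to 526 CPM in the female mice, as the hashtags are labeled.

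Spi1 encodes PU.1, the ETS factor that opens myeloid enhancers, and Cebpa and Cebpb encode C/EBP factors that act beside it, Cebpa in progenitors and Cebpb in mature monocytes, macrophages and granulocytes. Irf8 is required for type 1 conventional dendritic cells (cDC1) and Irf4 acts in type 2 conventional dendritic cells (cDC2) and in B cells, while Zeb2 is a zinc finger repressor that restrains the cDC1 fate. Maf drives genes of tissue macrophages, Klf4 acts in monocytes and in part of the cDC2, and Nr4a1 is both an immediate early gene and the factor on which Ly6c-low monocytes depend.

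Cells were assigned to classes by UMI counts (unique molecular identifiers, 1 per captured transcript) of genes other than these 9. The male mice gave 1426 macrophages (C1q genes at 0.5% or more of UMIs), 91 monocytes, 44 cDC1, 50 cDC2, 270 neutrophils, 164 B cells and 104 T and NK cells. A further 350 cells met the rules of more than 1 class and were set aside. Mouse 1 had the fewest cells (481), mouse 2 had 772 and mouse 3 had 1415, and the UMIs per mouse ranged from 4239463 to 13508078. The sums per mouse and class held 87242 to 7348745 UMIs, so that values in monocytes and dendritic cells were less precise than those in macrophages. Male cDC1 numbered 5, 12 and 27 cells in mouse 1, 2 and 3, and each mean of CPM weighs these sums equally. The summed level of 8 macrophage markers was 41534 to 43649 CPM in macrophages and 3414 to 5641 CPM in monocytes. Most of this sum was Apoe, at 37955 CPM over all macrophages and 4563 CPM over all monocytes. Each of the other markers was lower in monocytes as well. All classes of a mouse shared its digest and the lane, so p-values measure the spread between these mice only, estimated over all classes fitted together.

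The oligonucleotides that identify the 3 male mice are shown because each mean and error below rests on them. Capitals mark the whole antibody barcode.
Mouse 1: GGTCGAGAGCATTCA
Mouse 2: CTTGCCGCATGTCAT
Mouse 3: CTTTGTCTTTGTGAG

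The 9 genes lie on 6 chromosomes (GRCm38, GENCODE M21, all protein coding). Zeb2 spans chr2:44983632-45117395 on the minus strand, Spi1 chr2:91082390-91115756 and Cebpb chr2:167688915-167690418 on the plus strand. Klf4 lies at chr4:55527143-55532466 (minus), Cebpa at chr7:35119293-35121928 (plus), Maf at chr8:115682942-115707794 (minus) and Irf8 at chr8:120736358-120756694 (plus). Irf4 lies at chr13:30749226-30766976 and Nr4a1 at chr15:101254269-101274795, both on the plus strand. RefSeq start sites (GRCm38.p6) were matched for 7 of the 9 genes, all but Maf and Spi1.

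The 250 bases before the RefSeq start are printed for 5 of them, 5′ to 3′ along the gene's strand. For Nr4a1 that start lies inside the GENCODE span given above, so its window is not upstream of the whole gene. The last bases of the Irf4 window also lie inside its GENCODE span, which starts at 30749226. Irf8, Irf4 and Zeb2 are shown because they differed most between cDC1 and cDC2, and Klf4 and Nr4a1 because their levels were the most alike of any pair. Capitals mark every match, on either strand, to the MAF half-site TGCTGA, the PU.1 core GAGGAA, the IRF repeat (GAAA, any 2 bases, GAAA), the C/EBP site TTGNGNAA, the KLF box CACCC, the ZEB box CAGGTG, the NR4A site AAAGGTCA or the CREB half-site TGACG.
Irf8, chr8:120736108-120736357, plus strand: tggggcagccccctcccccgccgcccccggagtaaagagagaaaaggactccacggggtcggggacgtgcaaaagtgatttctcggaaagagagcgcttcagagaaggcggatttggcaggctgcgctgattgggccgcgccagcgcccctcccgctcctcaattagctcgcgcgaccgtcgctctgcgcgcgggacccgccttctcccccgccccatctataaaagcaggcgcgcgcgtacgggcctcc
Irf4, chr13:30748983-30749232, plus strand: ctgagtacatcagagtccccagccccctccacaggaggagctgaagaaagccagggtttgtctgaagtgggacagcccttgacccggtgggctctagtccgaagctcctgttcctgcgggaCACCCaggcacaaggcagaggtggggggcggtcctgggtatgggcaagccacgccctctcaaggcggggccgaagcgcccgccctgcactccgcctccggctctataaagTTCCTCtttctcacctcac
Zeb2, chr2:45117443-45117692, minus strand: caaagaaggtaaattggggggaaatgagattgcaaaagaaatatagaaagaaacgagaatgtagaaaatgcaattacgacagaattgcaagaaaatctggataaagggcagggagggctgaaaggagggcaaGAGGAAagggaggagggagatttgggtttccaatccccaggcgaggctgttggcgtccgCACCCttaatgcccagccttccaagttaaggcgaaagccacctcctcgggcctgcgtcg
Klf4, chr4:55532476-55532725, minus strand: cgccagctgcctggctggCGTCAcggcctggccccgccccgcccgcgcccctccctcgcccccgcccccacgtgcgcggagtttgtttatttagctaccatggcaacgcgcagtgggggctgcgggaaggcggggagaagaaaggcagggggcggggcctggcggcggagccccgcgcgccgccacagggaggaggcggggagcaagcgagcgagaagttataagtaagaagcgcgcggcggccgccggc
Nr4a1, chr15:101266596-101266845, plus strand: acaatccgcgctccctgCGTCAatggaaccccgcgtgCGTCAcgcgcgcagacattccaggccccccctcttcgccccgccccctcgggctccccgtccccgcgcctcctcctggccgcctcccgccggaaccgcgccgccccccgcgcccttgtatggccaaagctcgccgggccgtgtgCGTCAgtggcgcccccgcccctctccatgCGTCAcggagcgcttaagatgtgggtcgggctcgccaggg
RefSeq lists more than 1 start for Irf8 and Zeb2, and the most upstream is shown. The printed Irf8 window held no match to any of the 8 motifs, while that of a later start (chr8:120738389-120738638) held 1 MAF half-site and 1 ZEB box. The printed Irf4 and Zeb2 windows each held 1 PU.1 core and 1 KLF box, the Klf4 window 1 CREB half-site and the Nr4a1 window 4 CREB half-sites. Windows of later Zeb2 starts each held 1 PU.1 core, with 1 CREB half-site or 1 KLF box. Over all 32851 windows of this length, 23.3% held a PU.1 core, 52.0% a KLF box and 17.8% a CREB half-site. The MAF half-site was in 16.1%, the C/EBP site in 11.7%, the ZEB box in 17.2%, the IRF repeat in 2.98% and the NR4A site in 1.34%. CREB half-sites and KLF boxes can share letters, as in the Cebpb window, which held 3 and 2 of them. These matches describe the letters only.

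The order of the cell classes differed from gene to gene. By mean plain CPM of the male mice, Maf was highest in macrophages, and Cebpb, Zeb2 and Nr4a1 in monocytes. Irf8 was highest in cDC1, Klf4 in cDC2, Irf4 in B cells, and Spi1 in neutrophils. Cebpa was listed highest in macrophages, where its range over mice overlapped that of monocytes. The range of the leading class did not overlap that of the next for Maf, Cebpb, Zeb2, Irf8 and Irf4. It did for Spi1, Cebpa, Klf4 and Nr4a1. The share of all genes without such overlap was not computed, so this describes the plain CPM of these mice only. Between their leading classes, monocytes and macrophages, Cebpb and Zeb2 did not pass the test (edgeR adjusted p = 0.117 and 0.849). Levels are not compared between genes.

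**Figure D1:**
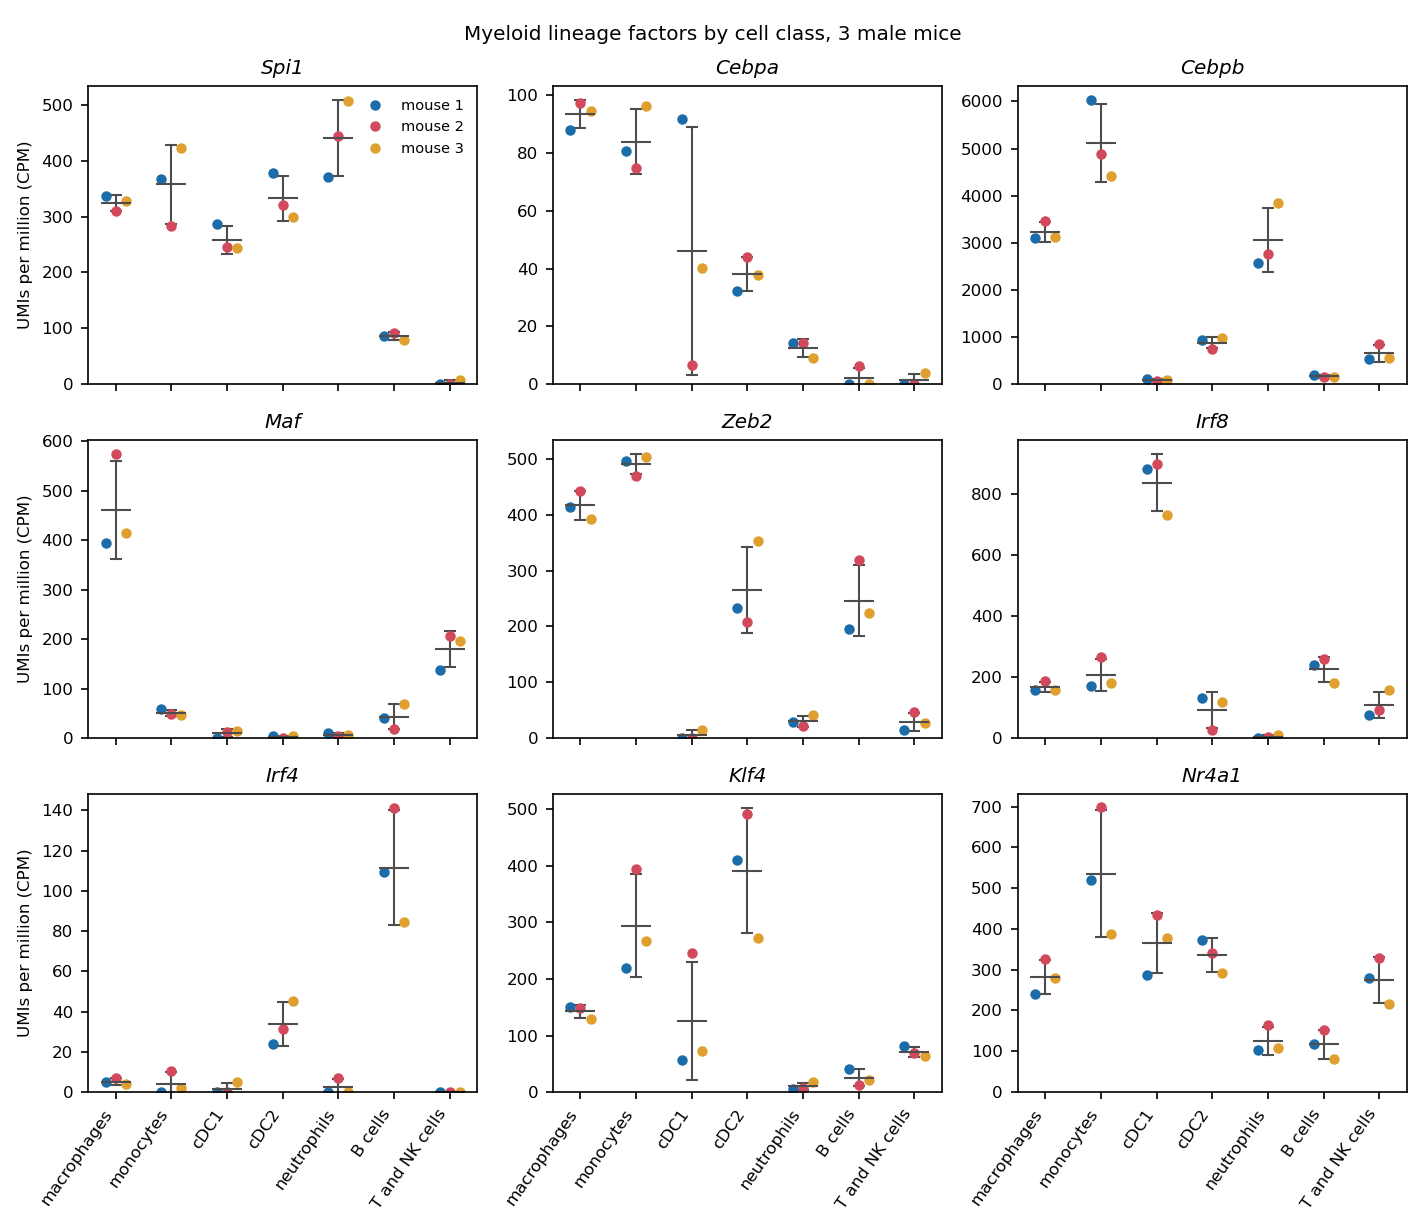
CPM (scaled UMIs, y axis from 0, 1 scale per panel) of the 9 factors in 7 cell classes (x axis) of the 3 male mice, with a point per mouse and the mean ± SD. Irf8 in cDC1 (729 to 898 CPM) and Maf in macrophages (395 to 574 CPM) stand above every other class, and Spi1 is spread over all myeloid classes.

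Spi1, the PU.1 gene, was present in every myeloid class. It reached 371, 444 and 507 CPM in the neutrophils of mouse 1, 2 and 3 (441 ± 68.3, SD, n = 3) and 367, 283 and 424 CPM in monocytes (358 ± 70.8). In cDC2 it was at 378, 322 and 299 CPM, in macrophages at 337, 310 and 327 CPM (325 ± 14), and in cDC1 at 287, 246 and 243 CPM (258 ± 24.4). The ranges of neighboring myeloid classes overlapped at each step except from macrophages to cDC1. B cells were lower in every mouse (86.8, 92.0 and 79.2 CPM), and T and NK cells held 2 Spi1 UMIs in all. Once each cell was thinned to 2000 UMIs, Spi1 was detected in 47.7% of macrophages and 65.3% of neutrophils, and in 0% of T and NK cells, which should lack it. Spi1 did not pass the test between macrophages and monocytes (log2 fold change 0.13, SE 0.18, edgeR adjusted p = 0.792), between cDC1 and cDC2 (-0.22, SE 0.21, adjusted p = 0.614), or between cDC2 and monocytes (-0.01, SE 0.20, adjusted p = 0.997). These 95% intervals ran from -0.23 to 0.49, from -0.66 to 0.22 and from -0.41 to 0.39. For the first, the unadjusted edgeR p of 0.667 is larger than its SE would give, so that SE and interval are too narrow for the test.

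Cebpb, the C/EBP factor of mature myeloid cells, separated the dendritic cells from the other myeloid classes. Its level was 6030, 4893 and 4425 CPM in the monocytes of the 3 mice (5116 ± 825), 3095, 3466 and 3126 CPM in macrophages (3229 ± 206), and 2579, 2750 and 3838 CPM in neutrophils (3056 ± 683). Every monocyte value was above every macrophage value. The neutrophil value leaves out 285 cells that also met the T and NK rule, and with them it was 1621, 1879 and 2268 CPM (1923 ± 326), below every macrophage value, where without them both classes overlapped. In cDC2 it fell to 933, 744 and 967 CPM (881 ± 120) and in cDC1 to 115, 71.1 and 92.7 CPM (92.8 ± 21.8). The cDC1 level was below that of T and NK cells (649 ± 172) and B cells (164 ± 28.6). In cells thinned to 2000 UMIs, 95.3% of macrophages and 94.4% of monocytes had a Cebpb UMI, against 48.0% of cDC2 and 9.09% of cDC1.

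Among the tests of Cebpb, both with dendritic cells passed. Cebpb was 8.62-fold lower in cDC1 than in cDC2 (log2 fold change -3.11, SE 0.25, edgeR adjusted p = 1.27e-09) and 5.29-fold lower in cDC2 than in monocytes (-2.40, SE 0.19, adjusted p = 3.94e-10), in 3 of 3 mice each. The sizes in the female mice were -4.18 and, with 2 monocyte sums, -1.74, and the first was also -4.18 in thinned cells. Macrophages against monocytes did not pass (-0.35, SE 0.17, edgeR adjusted p = 0.117). Of 14 alternatives it passed in 2, with library size alone as the scale (-0.66, adjusted p = 0.0018) and in a fit of these classes alone (-0.43, adjusted p = 0.0134). The other 12 did not pass, and the 14 ran from -0.66 to 0.38, so the sign was not the same in all.

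Cebpa, its relative that starts the granulocyte and monocyte lineages, was at 88.0, 97.4 and 94.7 CPM in macrophages (93.4 ± 4.86) and 80.6, 74.8 and 96.4 CPM in monocytes (83.9 ± 11.2). Its cDC1 values of 91.7, 6.46 and 40.1 CPM, from 5, 12 and 27 cells, were too spread to be placed. The cDC2 values were 32.2, 44.1 and 37.9 CPM (38.1 ± 5.98) and the neutrophil values 14.3, 14.2 and 8.87 CPM (12.5 ± 3.12), with no overlap between these classes. B cells and T and NK cells held 1 Cebpa UMI each, against 1208 in macrophages. Cebpa was lower in neutrophils than in monocytes (log2 fold change -2.22, SE 0.39, edgeR adjusted p = 3.33e-05) and in cDC2 than in monocytes (-1.10, SE 0.37, adjusted p = 0.0404). The second call did not hold without mouse 1 (adjusted p = 0.166), without mouse 3 (0.377) or in the female mice with 2 monocyte sums (0.653).

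Maf, which encodes c-MAF, was highest in macrophages. Macrophages of mouse 1, 2 and 3 had 395, 574 and 415 CPM (461 ± 98.2) and monocytes 58.2, 48.1 and 46.2 CPM (50.8 ± 6.48). Between them stood T and NK cells with 138, 206 and 197 CPM (180 ± 37.0), and none of these ranges overlapped. B cells were at 42.8 ± 25.1 CPM, and the remaining classes were near the limit of counting, with 8 Maf UMIs in cDC1, 11 in neutrophils and 2 in cDC2. After thinning to 2000 UMIs, 53.5% of macrophages and 1.67% of neutrophils had a Maf UMI.

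Maf was 11.3-fold higher in macrophages than in monocytes (log2 fold change 3.50, SE 0.26, edgeR adjusted p = 1.84e-11, 3 of 3 mice). It was 4.42 in thinned cells and 4.38 in the female mice with 2 monocyte sums. Of all 5298 genes in this test, 17.4% were higher in macrophages and 15.9% were lower, and of the 9 factors 1 was higher (Maf) and 2 were lower (Klf4 and Nr4a1). The C1q limit that defined macrophages bears on this comparison, so its edge is given as a description over all male cells, those that met a second class rule included. The 87 cells just inside it (C1q at 0.5 to 1% of UMIs) had 350 Maf CPM, the 1397 cells above 1% had 461 CPM and the 14 cells just outside (0.25 to 0.5%) had 277 CPM. The dissociation genes (Fos, Jun and 11 others induced by tissue digestion) made up 1.79% ± 0.437 of UMIs in macrophages and 0.888% ± 0.0895 in monocytes, and 11 of 13 were higher in macrophages (median log2 fold change 1.91, beside 0.04 over all genes tested). Their part in this result was not tested.

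Within macrophages, cells were divided by UMIs of Fcrls, an Fc receptor-like gene of resident macrophages, and Ccr2, the chemokine receptor of recruited monocytes. In Fcrls+Ccr2- macrophages (649 cells) Maf was at 560, 715 and 521 CPM (599 ± 103), and in Fcrls-Ccr2+ macrophages (153 cells) at 233, 217 and 193 CPM (214 ± 19.8). Every value of the first gate was above every value of the second. Macrophages with both genes (558 cells) stood between them at 290, 460 and 377 CPM (376 ± 84.8). The 66 macrophages with neither gene had 259, 748 and 233 CPM, a spread in which mouse 2 alone was high. Maf was 2.64-fold higher in Fcrls+Ccr2- than in Fcrls-Ccr2+ macrophages (log2 fold change 1.4, SE 0.28, 95% interval 0.83 to 1.98, edgeR adjusted p = 0.00245).

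Of the 8 factors tested between these gates 1 passed, Maf, with 3.11% of the 6393 genes higher and 4.43% lower. Maf passed in each of 14 alternative fits (log2 fold change 0.87 to 1.60, adjusted p from 7.806e-17 to 0.02525), the female mice included. The same gates differed in other genes too. The 8 macrophage markers summed to 46177 to 49465 CPM in the Fcrls+Ccr2- gate and 31716 to 33658 CPM in the other, and 6 cDC2 markers to 6871 to 11739 and 14002 to 18748 CPM. The first sum is mostly Apoe, at 37955 CPM over all macrophages. The second sum is mostly H2-Aa, an MHC class II gene at 10565 CPM over all macrophages, which cDC1 held as well (16748 CPM). Dissociation genes made up 2.07% ± 0.588 and 1.36% ± 0.0943 of UMIs, with 5 of 13 higher in the Fcrls+Ccr2- gate (Jun and Rhob, both at 1.17, the most). The part of these in the Maf difference was not tested.

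**Figure D2:**
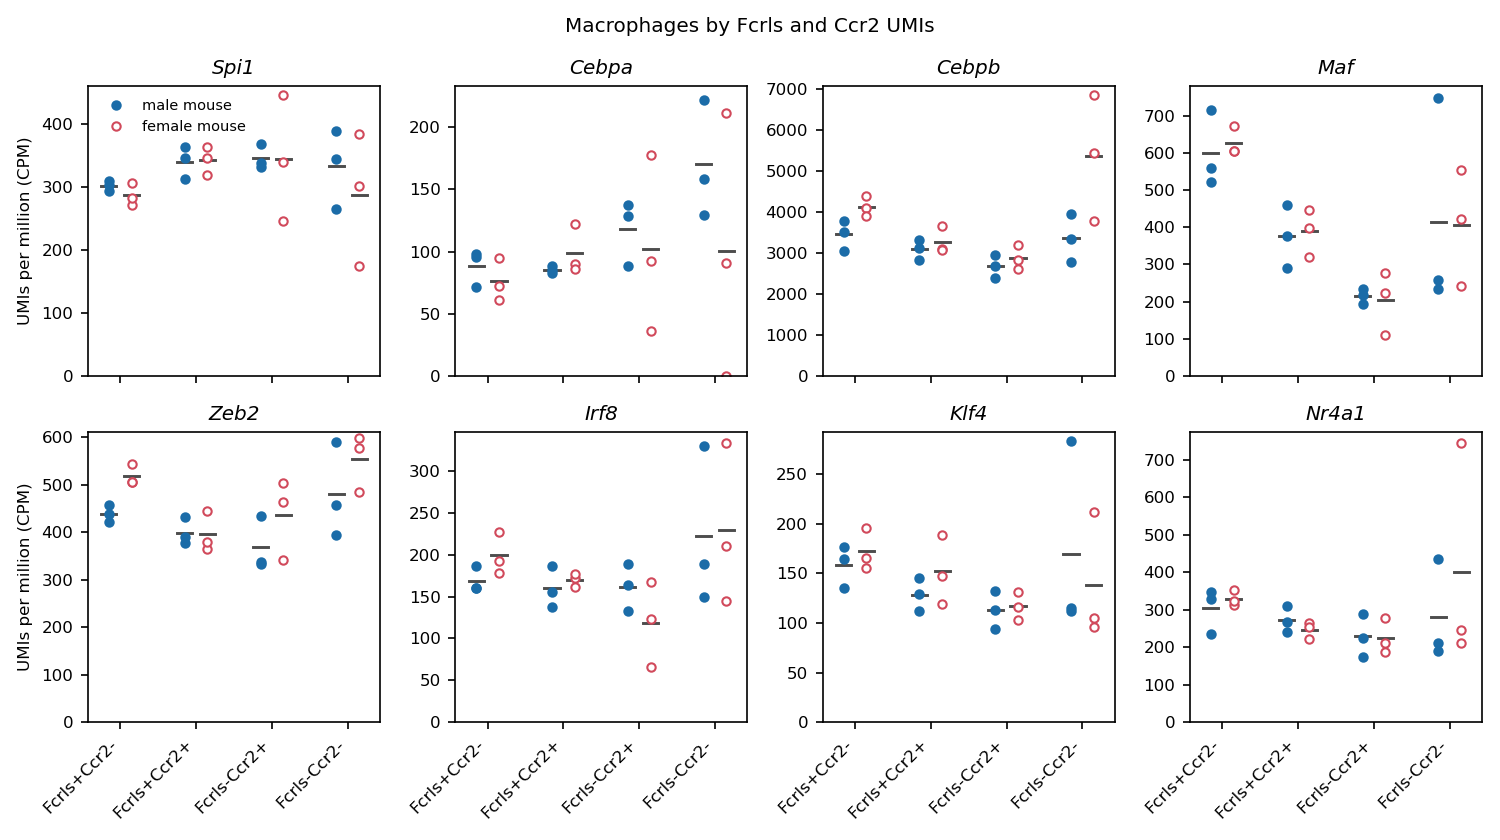
CPM (scaled UMIs, y axis from 0, 1 scale per panel) of 8 factors in macrophages divided by UMIs of Fcrls and Ccr2 (x axis), with filled points for male and open points for female mice and a line at each mean. Maf falls from 599 CPM (male mean) in the Fcrls+Ccr2- gate to 214 CPM in the Fcrls-Ccr2+ gate, and the gates of the other factors lie closer together.

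Maf was also read against the number of UMIs of each gate gene, in macrophages thinned to 2000 UMIs so that depth was equal. With 0, 1, 2 and 3 or more Fcrls UMIs, mean Maf was 349, 519, 585 and 657 CPM (573, 308, 214 and 301 cells). The lowest bin was below the highest in each mouse (278 against 613, 447 against 819 and 322 against 541 CPM). With 0, 1 and 2 Ccr2 UMIs, mean Maf was 524, 427 and 308 CPM, and each mouse fell from the first to the third of these bins. The 67 cells with 3 or more Ccr2 UMIs were at 509 CPM, so the fall did not continue. This bin was above the third in each mouse (571 against 289, 552 against 350 and 403 against 284 CPM). Both rested on few Maf UMIs, 8, 32 and 25 in this bin and 11, 21 and 29 in the third.

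**Figure D3:**
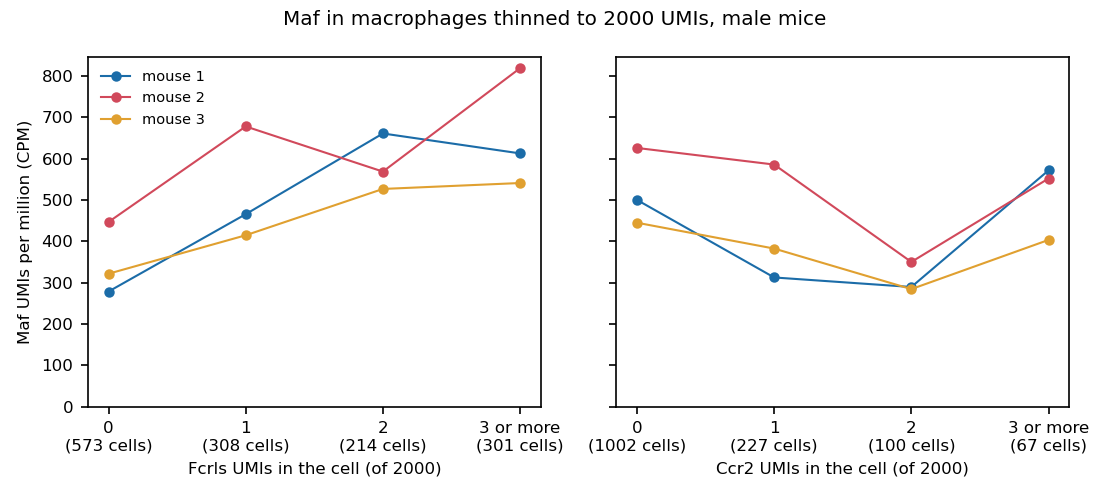
Maf CPM (scaled UMIs, y axis from 0) in macrophages of the 3 male mice (1 line each), thinned to 2000 UMIs per cell, by the number of Fcrls (left) or Ccr2 (right) UMIs in the cell (x axis, with cells per bin). Mean Maf runs from 349 to 657 CPM over the Fcrls bins, and from 524 to 308 CPM over the first 3 Ccr2 bins before 509 CPM in the last.

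The remaining factors did not pass between these gates. Cebpb was at 3060, 3786 and 3525 CPM in Fcrls+Ccr2- and 2687, 2399 and 2952 CPM in Fcrls-Ccr2+ macrophages, with no overlap, but a log2 fold change of 0.26 (SE 0.12, 95% interval 0.00 to 0.51, edgeR adjusted p = 0.259). Spi1 was lower in all 3 mice, at 304, 294 and 310 against 338, 368 and 332 CPM (-0.30, SE 0.13, adjusted p = 0.214). Cebpa was at 71.6, 97.9 and 95.4 against 138, 88.5 and 129 CPM (-0.49, SE 0.19, adjusted p = 0.139). Klf4 (0.39, interval -0.07 to 0.85), Nr4a1 (0.25, -0.20 to 0.71), Zeb2 (0.14, -0.16 to 0.45) and Irf8 (-0.07, -0.47 to 0.34) had adjusted p of 0.369, 0.608, 0.694 and 0.921. Irf4 was too low to be tested, with 31 UMIs in the Fcrls+Ccr2- gate and 4 in the other.

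The dendritic cells differed in 5 of the 9 factors. Irf8, the factor cDC1 need to develop, was at 883, 898 and 729 CPM in cDC1 (837 ± 93.3) and 133, 25.2 and 118 CPM in cDC2 (91.8 ± 58.2). In the male mice no other class reached the cDC1 range, the next being B cells at 238, 258 and 179 CPM. Female cDC1 (7, 8 and 5 cells) were at 306, 694 and 694 CPM. Female monocytes (4, 6 and 5 cells) were at 53.9, 323 and 479 CPM, which overlapped that range. Irf8 was 9.45-fold higher in cDC1 than in cDC2 (log2 fold change 3.24, SE 0.31, edgeR adjusted p = 1.91e-08, 3 of 3 mice), with 2.56 in thinned cells and 4.50 in the female mice. At 2000 UMIs per cell, 68.2% of cDC1, 14% of cDC2 and 1.26% of neutrophils had an Irf8 UMI. Of the 5298 genes tested, 6.17% were higher in cDC1 and 5.4% lower, and of the 9 factors 1 was higher (Irf8) and 4 were lower (Zeb2, Cebpb, Klf4 and Irf4).

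Zeb2 ran the other way. It was at 233, 208 and 353 CPM in cDC2 (265 ± 77.2), while cDC1 of mouse 1 and 2 held none and those of mouse 3 were at 15 CPM, 6 UMIs in all. Pooled over mice, the ratio of cDC2 to cDC1 was 29.3 with a 95% counting interval of 13.2 to 80.8 (edgeR adjusted p = 3.23e-08). Irf4 was low in both, with 23 UMIs in cDC2 (24.1, 31.5 and 45.5 CPM) and 2 in cDC1, a ratio of 11 (2.71 to 96.1). Its edgeR adjusted p was 0.0263, and it did not hold without mouse 1 (0.0690), mouse 2 (0.0771) or mouse 3 (0.171), or in the female mice (0.0914).

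Klf4, a zinc finger factor needed by part of the cDC2, was at 410, 492 and 273 CPM in cDC2 (392 ± 111) and 57.3, 246 and 72.7 CPM in cDC1 (125 ± 105). The groups did not overlap, although cDC1 of mouse 2 came close to cDC2 of mouse 3. Klf4 was 2.83-fold lower in cDC1 (log2 fold change -1.50, SE 0.36, edgeR adjusted p = 0.00423). It was -2.11 without mouse 2, and the call was lost without mouse 3 (-1.24, adjusted p = 0.0827), in thinned cells (0.105) and in the female mice (-0.29, 0.708). Nr4a1 (0.34, SE 0.24, adjusted p = 0.451), Cebpa (0.26, SE 0.46, adjusted p = 0.826) and Maf (8 and 2 UMIs, ratio 4.19 with an interval of 0.836 to 40.5, adjusted p = 0.225) did not pass.

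The cDC2 were also set against monocytes, a class that held Ccr2 too (702 CPM over all cDC2 and 1142 CPM over all monocytes). Ccr2 was not limited to these, with 337 CPM in T and NK cells, 324 in cDC1 and 234 in macrophages. Of 5298 genes, 7.57% were higher in cDC2 and 8.19% lower, and of the 9 factors 1 was higher (Irf4) and 4 were lower (Cebpb, Maf, Zeb2 and Cebpa). Irf4 had 23 UMIs in cDC2 and 3 in monocytes, a ratio of 10.4 (3.13 to 54.0), with an edgeR adjusted p of 0.0053 that was lost without mouse 3 (0.194) and in the female mice with 2 monocyte sums (0.232), while the fitted log2 fold change was 3.40 with all mice and 4.62 without mouse 2. Maf had 2 UMIs in cDC2 and 45 in monocytes, so that monocytes were 16.6 times as high (4.34 to 141, edgeR adjusted p = 0.000384). This call was lost in thinned cells (0.297) and in the female mice, again with 2 monocyte sums (0.930).

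In Zeb2, monocytes had 497, 470 and 504 CPM (491 ± 18.1), all above the cDC2 values, and macrophages 414, 444 and 393 CPM (417 ± 25.2). Between macrophages and monocytes Zeb2 did not pass (log2 fold change 0.06, SE 0.20, edgeR adjusted p = 0.849). It did not pass in any of 14 alternatives either, which ran from -0.24 to 0.38. Zeb2 was 1.68-fold lower in cDC2 than in monocytes (log2 fold change -0.75, SE 0.23, edgeR adjusted p = 0.0246), a call that was lost without mouse 1 (0.164) or mouse 2 (0.108), in thinned cells (0.164) and in the female mice with 2 monocyte sums (0.611). Irf8 did not pass (-0.92, SE 0.34, adjusted p = 0.0675), but passed in 5 of 11 alternatives, among them without mouse 1 (adjusted p = 0.0385) and in the female mice (-3.55, adjusted p = 2.01e-05). That female fit used monocyte sums of 6 and 5 cells with 323 and 479 CPM, and left out the 4 monocytes of female mouse 1, which had 53.9 CPM. Klf4 (0.54, SE 0.30, adjusted p = 0.245) and Nr4a1 (-0.52, SE 0.22, adjusted p = 0.121) did not pass.

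Nr4a1, an orphan nuclear receptor induced rapidly by stimuli, and Klf4 were both lower in macrophages than in monocytes. Nr4a1 was at 520, 700 and 388 CPM in monocytes (536 ± 157) and 240, 326 and 281 CPM in macrophages (282 ± 42.7). Klf4 was at 220, 395 and 267 CPM in monocytes (294 ± 90.9) and 150, 149 and 129 CPM in macrophages (143 ± 11.8). Both were higher in monocytes without overlap. Macrophages were lower in Nr4a1 by a log2 fold change of -0.58 (SE 0.20, edgeR adjusted p = 0.0258) and in Klf4 by -0.72 (SE 0.27, adjusted p = 0.0433). The Nr4a1 call was lost without mouse 1 (0.149) or mouse 2 (0.0964), in thinned cells (0.273) and in the female mice with 2 monocyte sums (0.662). The Klf4 call was lost in 6 of 14 alternatives, among them without mouse 2 (0.103) or mouse 3 (0.160), in the same female mice (0.545) and in DESeq2 (0.191).

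The summed share of the dissociation genes was higher in macrophages than in monocytes, the other way from both genes, and its part was not tested. Nr4a1 was found in every class, with 366 ± 74.0 CPM in cDC1, 335 ± 41.3 in cDC2, 275 ± 56.2 in T and NK cells, 125 ± 33.4 in neutrophils and 117 ± 35.7 in B cells. Klf4 was at 70.8 ± 9.14 CPM in T and NK cells and lower in B cells (25 ± 15) and neutrophils (9.88 ± 6.91). The Ly6c-low monocytes, which depend on Nr4a1, numbered 3 in the male mice and are not described.

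Neutrophils differed from monocytes in 7 of the 9 factors, in the comparison with the most genes called. Of 5298 genes, 21.8% were higher in neutrophils and 23.5% lower, and of the 9 factors 1 was higher (Spi1) and 6 were lower. This leaves out 285 neutrophils that also met the T and NK rule through Cd3d. With them kept, 1 factor was higher and 7 were lower. The 270 neutrophils held a median of 3594.5 UMIs per cell and the 91 monocytes 10100. Zeb2 was at 30.3 ± 9.97 CPM in neutrophils (log2 fold change -3.18, SE 0.28, edgeR adjusted p = 3.41e-10). Klf4 (-3.85, SE 0.44, adjusted p = 4.52e-08) and Irf8 (-4.31, SE 0.48, adjusted p = 3.16e-08) were lower by more. Without mouse 3 these were -5.02 and -6.41, and in the female mice with 2 monocyte sums -5.77 and -6.23. Irf8 held 10 UMIs in neutrophils and 178 in monocytes, a pooled ratio of 31.4 (16.7 to 66.6).

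Maf had 11 UMIs in neutrophils and 45 in monocytes (log2 fold change -2.15, SE 0.49, edgeR adjusted p = 0.00079), a call that was lost in thinned cells (0.542) and in the female mice with 2 monocyte sums (0.753). Nr4a1 was lower by -1.43 (SE 0.23, adjusted p = 1.12e-05), but by -0.51 (adjusted p = 0.158) in thinned cells. These differences are relative to TMM scaling, which puts the median gene at -0.04. With library size alone the median of all genes was -0.72, and the split of calls moved from 1154 higher and 1245 lower to 531 and 2432.

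Spi1 and Cebpb depended on that scale. Spi1 was higher in neutrophils with TMM (log2 fold change 0.96, SE 0.18, edgeR adjusted p = 9.14e-05), but the plain CPM values of both classes overlapped and the difference with library size alone was 0.28 (adjusted p = 0.180). Cebpb did not differ detectably with TMM (-0.04, 95% interval -0.40 to 0.31, adjusted p = 0.871), was lower with library size alone (-0.74, adjusted p = 0.000437) and higher in thinned cells (0.87, adjusted p = 5.666e-06). No direction is therefore given for Cebpb in neutrophils. A further 285 cells met the neutrophil rule and also the T and NK rule, with 1368 Cd3d, 8 Cd3g and 0 Cd3e UMIs, and had been set aside. With Cd3d left out of the rule, 555 neutrophils remained, Cebpb was at 1923 ± 326 CPM and lower than in monocytes (-0.46, adjusted p = 0.0246).

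In other comparisons the same change of scale moved the median gene by less. It was at -0.24 for macrophages against monocytes (602 higher and 1410 lower, in place of 921 and 842), at -0.21 for cDC1 against cDC2 (220 and 387, in place of 327 and 286) and at 0.13 for the macrophage gates (271 and 203, in place of 199 and 283). For cDC2 against monocytes it was at -0.09 (328 and 548, in place of 401 and 434). For B cells against T and NK cells it was at 0.11 (679 and 618, in place of 600 and 673).

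Among lymphocytes, each class had its own factors of this set. Irf4, which B cells use for antibody-secreting fate, was at 109, 141 and 84.4 CPM in B cells (112 ± 28.3, 84 UMIs). T and NK cells held 0 UMIs (edgeR adjusted p = 3.51e-06). B cells were 20.7-fold above a floor of 3 counts over that group, which is no lower bound, and the lower counting limit of the ratio was 16.4-fold. In the female mice T and NK cells did hold Irf4, 4 UMIs (12.1 ± 12.1 CPM, against 132 ± 33.9 in B cells), and the log2 fold change was 3.15 (adjusted p = 0.000826). Spi1 held 68 UMIs in B cells and 2 in T and NK cells, a ratio of 25.1 (6.69 to 211, adjusted p = 7.23e-07), and both of the latter came from mouse 3. The fitted log2 fold change was 4.51 with all mice, 3.85 without mouse 1 and 2.60 in the female mice (114 ± 39.3 against 17.9 ± 8.61 CPM, adjusted p = 7.87e-05). Zeb2 was at 196, 319 and 224 CPM in B cells (246 ± 64.2) and 29.2 ± 15.8 CPM in T and NK cells (log2 fold change 3.06, SE 0.37, adjusted p = 3.20e-07), and 3.72 in the female mice.

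T and NK cells were higher in Maf, Cebpb and Nr4a1. Maf, which helper T cells use for cytokine genes, was 3.89-fold lower in B cells (log2 fold change -1.96, SE 0.32, edgeR adjusted p = 3.08e-05), Cebpb 4.04-fold lower (-2.01, SE 0.22, adjusted p = 5.24e-08) and Nr4a1 2.53-fold lower (-1.34, SE 0.27, adjusted p = 0.000448). The Nr4a1 call was lost in the female mice (-0.38, adjusted p = 0.511). Divided further, male T cells were at 182 ± 31.0 Maf CPM and NK cells at 189 ± 107 CPM, so the Maf level was not particular to T cells. Of 5298 genes, 11.3% were higher in B cells and 12.7% lower, and of the 9 factors 3 were higher and 3 lower.

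Irf8 and Klf4 stood near the threshold. Irf8 was at 225 ± 40.6 CPM in B cells and 76.0, 91.6 and 157 CPM in T and NK cells (log2 fold change 0.89, SE 0.34, edgeR adjusted p = 0.0573), and passed in 6 of 12 alternatives. In the same split, NK cells numbered 6, 9 and 10 in mouse 1, 2 and 3, and T cells 24, 10 and 29. The NK cells had 367, 118 and 486 Irf8 CPM and the T cells 2 UMIs in all. Zeb2 was at 89.3 ± 19.7 CPM in NK cells with 2 UMIs in T cells. Klf4 did not pass (-1.51, SE 0.57, adjusted p = 0.0557), but passed in 5 of 12 alternatives, among them the mouse as a block (-1.49, adjusted p = 0.0324) and the female mice (-3.18, adjusted p = 1.13e-05).

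**Figure D4:**
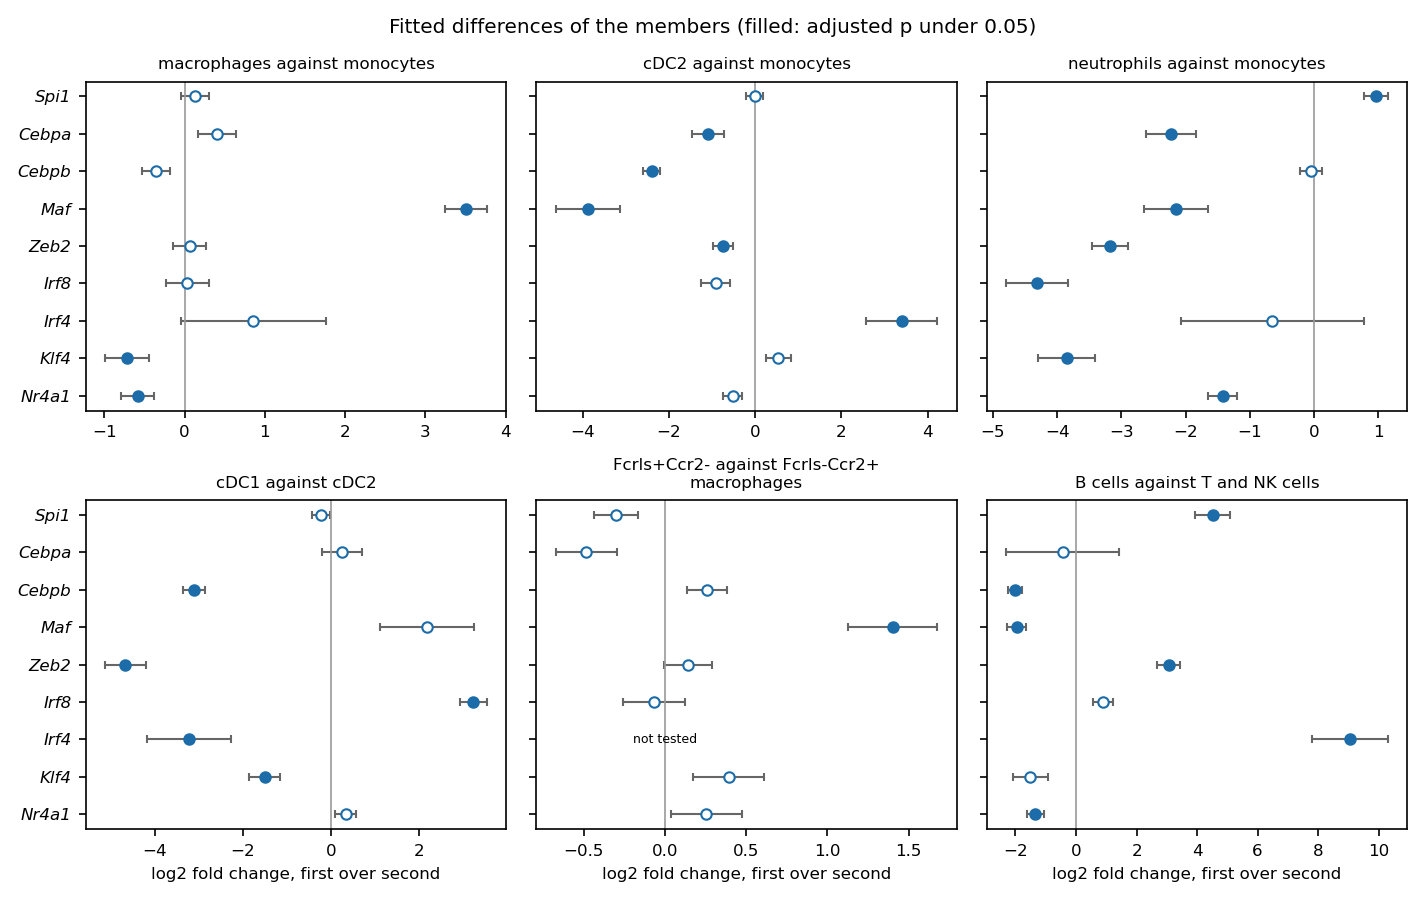
Fitted log2 fold change (x axis, first class over second, linear scale) of the 9 factors in 6 comparisons, with bars for the SE and filled points for an adjusted p under 0.05. Irf8 at 3.24 and Zeb2 at -4.66 stand on opposite sides between cDC1 and cDC2, Irf4 was not tested between macrophage gates, and its point for B cells is no bound because T and NK cells had 0 UMIs.

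Relatives of the factors were counted in the same fits, and each count of a few genes stands beside the share of all genes called. In the order higher and lower, that share was 17.4% and 15.9% for macrophages against monocytes, 21.8% and 23.5% for neutrophils, 7.57% and 8.19% for cDC2, 6.17% and 5.4% for cDC1 against cDC2, 11.3% and 12.7% for B cells, and 3.11% and 4.43% for the gates. Between macrophages and monocytes the median log2 fold change was -0.11 over other IRF genes, -0.63 over other C/EBP genes, 0.71 over other KLF genes and 0.62 over ETS genes, beside 0.04 over all genes tested. Between the macrophage gates these medians ran from -0.16 (C/EBP) to 0.02 (ETS), beside 0.02 over all genes.

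Of 6 further IRF family genes, 2 of 5 tested were lower in macrophages than in monocytes, Irf7 (log2 fold change -1.44, edgeR adjusted p = 0.00368) and Irf5 (-0.78, adjusted p = 0.00186), and none was higher, where 15.9% of all genes were lower. Irf7, the interferon amplifier, was also higher in cDC1 than in cDC2 (3.23, adjusted p = 0.00342), lower in cDC2 than in monocytes (-3.56, adjusted p = 0.00031) and lower in neutrophils (-1.62, adjusted p = 0.00613). Irf2 was lower in cDC1 (-1.32), Irf5 in neutrophils (-3.08) and in Fcrls+Ccr2- macrophages (-0.74, adjusted p = 0.0122). B cells against T and NK cells had 2 of 5 higher and 2 lower. In the C/EBP family, Cebpe, a granulocyte factor, was higher in neutrophils than in monocytes (5.69, adjusted p = 3.48e-12), as was Cebpd (1.96), and these were 2 of 4. In macrophages 2 of 4 were lower (Cebpe at -3.58 and Cebpz by less), in cDC2 1 of 4 (Cebpd at -1.27), and between the macrophage gates 1 of 3 was lower (Cebpz at -0.78, adjusted p = 0.00862).

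KLF family genes moved in both directions. Against monocytes, macrophages had 3 of 6 higher (Klf6 at 1.54 and Klf7 at 1.23 the most) and 2 lower (Klf13 at -1.24 and Klf3 at -0.87), where 17.4% and 15.9% of all genes were called. Neutrophils had 4 higher and 1 lower, where 21.8% and 23.5% were. In cDC2, 3 of 6 were lower (Klf2 at -1.34 and Klf3 at -1.08 the most), and in cDC1 against cDC2 Klf2 was higher (1.64) and Klf10 lower (-1.10). B cells had 3 of 6 lower than T and NK cells, and 0 of 6 passed between macrophage gates. Of the other NR4A genes, Nr4a2 was lower than in monocytes in macrophages (-2.68, edgeR adjusted p = 7.73e-08) and neutrophils (-4.44, adjusted p = 2.23e-07) and higher in cDC1 than in cDC2 (1.39, adjusted p = 0.00259). Nr4a3 was higher in cDC2 than in monocytes (2.19, adjusted p = 0.000441), and both NR4A genes were lower in B cells.

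Other lineage factors were read the same way. Of 8 dendritic cell factors tested, 1 was higher in cDC1 than in cDC2 (Id2, which cDC1 require, at 2.92 with edgeR adjusted p = 3.68e-07) and 0 were lower. In cDC2, 3 were higher than in monocytes (Rbpj at 1.81 and Batf3 at 1.74 the most) and 1 lower (Nfil3 at -1.99). Macrophages had 3 higher (Tcf4 at 1.38 and Rbpj at 1.33 the most) and 2 lower (Bcl11a at -4.91 and Nfil3 at -1.53), neutrophils 5 lower. Of the ETS genes, 3 of 8 were higher in macrophages (Etv3 at 0.79 and Elk3 at 0.78 the most), and in neutrophils 2 were higher (Ets1 at 3.96 and Ets2 at 1.75) and 3 lower. Of the macrophage factors, Pparg was lower in Fcrls+Ccr2- macrophages (-2.39, adjusted p = 0.0114), 1 of 8 tested, and against monocytes macrophages had 3 of 6 higher (Mef2c at 1.78 and Runx1 at 1.65 the most) and 2 lower (Bhlhe40 at -2.51 and Hif1a at -0.72). Of the lymphoid factors, 5 of 13 were higher in B cells (Ebf1 at 10.27 and Pax5 at 9.95 the most) and 5 in T and NK cells.

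Receptors and known targets of these factors were counted last. Of 7 tested, 3 were higher in macrophages than in monocytes (Adgre1 at 2.78 and Cx3cr1 at 2.68 the most) and 2 lower (Flt3 at -2.25 and Itgam at -0.71). In neutrophils 2 were higher (Csf3r, the G-CSF receptor, at 3.32 with edgeR adjusted p = 9.29e-12, and Itgam at 0.63) and 3 lower, and in cDC2 1 was higher than in monocytes (Flt3, the dendritic cell growth factor receptor, at 2.54 with adjusted p = 0.0125) and 2 lower. Itgam, which encodes CD11b, was lower in cDC1 than in cDC2 (-3.97, adjusted p = 3.27e-06), 1 of 7. Between the macrophage gates Adgre1 was higher (0.56) and Csf2ra lower (-0.64), and in B cells Csf2ra was higher (3.42). Of 4 genes listed as neutrophil factors, only Runx3 and Xbp1 were tested, and Gfi1 was not. Both were lower in neutrophils than in monocytes (-2.35 and -0.76), which does not describe neutrophil factors as a whole.

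Macrophages of the female mice had Maf at 425, 502 and 542 CPM (489 ± 59.1), within the male range. None of the 9 factors passed between the sexes (log2 fold changes of -0.08 to 0.55), where 0.0869% of 8055 genes passed, 7 in all. Cebpb came closest (0.21, SE 0.09, edgeR adjusted p = 0.849). Between the gates, female Maf was at 604, 604 and 672 CPM in Fcrls+Ccr2- and 109, 224 and 278 CPM in Fcrls-Ccr2+ macrophages, with no overlap. A difference of the gate's effect between the sexes was found for 0% of 6133 genes by edgeR, with 261 at an unadjusted p under 0.05, and 1 by DESeq2. For Maf that difference was 0.22 (95% interval -0.38 to 0.81). Irf8 had the largest such difference of the 8 factors tested (0.83, SE 0.31, edgeR adjusted p = 1.0), with 193, 228 and 178 CPM in female Fcrls+Ccr2- macrophages and 65.4, 168 and 124 CPM in Fcrls-Ccr2+ ones.

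Likeness of pattern was described by Pearson's r of log2(CPM + 10) over 30 sums, those of 6 classes and 4 macrophage gates in 3 mice, among 6958 genes. The sums share mice and a lane, and depth differs between classes. The genes most like Maf were Prdm1 (r = 0.909), Tmem37 (0.904) and Pdlim4 (0.891), and those most like Spi1 were Clec12a (0.942), Csf2ra (0.919) and Smim3 (0.913). Cebpb ran closest with Hacd4 (0.933), Snx18 (0.923) and Fcgr3 (0.920), and Cebpa with Asah1 (0.923), Cd68 (0.921) and Cd14 (0.912). Irf8 was closest to Ucp2 (0.876), H2-M3 (0.848) and Pomp (0.847), and Irf4 to Mzb1 (0.897), Spib (0.892) and Siglecg (0.881).

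For Klf4 these were Dusp3 (0.875), Scarb2 (0.863) and Fam105a (0.860), and for Nr4a1 Fam105a (0.864), Lfng (0.782) and Ahnak (0.781). For Zeb2 they were Zeb2os (0.946), Lamp1 (0.896) and Pou2f2 (0.891). Zeb2os is antisense to Zeb2, and the counting is not stated to use strand, so its value is uncertain. Among pairs of the 9 factors the highest were Klf4 with Nr4a1 (0.756), Spi1 with Cebpa (0.671) and Cebpb with Zeb2 (0.609). The lowest were Irf4 with Cebpb (-0.429) and Irf8 with Cebpb (-0.418).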

How the data were processed

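CD45+ DRG cells of 6 mice were profiled in a single lane. The authors deposited raw UMI counts, not normalized, for 4395 barcodes with 6 hashtags, and raw counts for the filtered male cells. The submitters' processing notes name Cell Ranger, Seurat and mm10. HTODemux (Seurat 5.3.0, R 4.3.3) and the study's filters (over 200 and under 5000 genes, under 5% mitochondrial UMIs) left 3741 singlets, of which 1073 were female and the male ones were exactly the deposited cells. The hashtag counts also removed 269 doublets, and cells that met 2 class rules were left out.

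Classes were set by UMIs: C1qa+C1qb+C1qc at 0.5% or more (macrophages), S100a8+S100a9 at 5% or more (neutrophils), Xcr1+Clec9a of 2 (cDC1), Cd209a of 3 with C1q under 0.5% (cDC2), Cd79a+Cd79b of 3 (B cells), and Cd3d+Cd3e+Cd3g+Ncr1+Klrb1c of 2 (T and NK cells). Monocytes met none and had Lyz2 of 5, Ly6c2+Plac8 of 3 and Csf1r+Ccr2 of 1 or more, with Mpo+Elane+Prtn3 under 5. Among T and NK cells, T cells had Cd3d+Cd3e+Cd3g of 2 or more and no UMI of Ncr1+Klrb1c, and NK cells the reverse. Gates needed 1 UMI. UMIs were summed per mouse and class (5 cells or more) and compared by the quasi-likelihood test of edgeR (4.0.16, TMM, filterByExpr, Benjamini-Hochberg over all genes tested, adjusted p at 0.05). For male comparisons of classes or gates, 1 fit held all 7 classes or all 4 gates, so the spread rests on groups outside the comparison too. Sums of the same mouse were treated as independent there. The script was tested on simulated data. CPM are plain sums. SE is the log2 fold change divided by the root of F. Intervals (95%) of log2 fold changes use that SE and a t distribution with the degrees of freedom of the test. Those of pooled ratios, and floors (3 counts), cover counting error only. Alternatives were DESeq2 1.42.0, other scaling and filters, leaving out each mouse, a mouse block, thinning to 2000 UMIs, other class rules and the female mice. The library size scale, the rule without Cd3d and macrophages kept despite B or T cell UMIs were added after seeing the data.

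The classes pair by mouse, since a hashtag is an animal. In the gate comparison, deviations of the same mouse correlated at 0.0503, 0.0844 and 0.207, and those of other mice at -0.0346 to -0.0865. Deviations were taken from the mean of the mice, so a positive value for the same mouse brings a negative one for the others. The contrast between them is therefore no separate evidence of pairing. In the other comparisons of classes, values of the same mouse ran from -0.0724 to 0.0994. The 9 factors and all lists were chosen with earlier results of these data known. The text names the 9 factors, the 3 genes most like each, and up to 2 list genes per direction that passed with the largest fold. Other genes of the MAF family are not reported here.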

Additional observations from a re-analysis of the deposited data

Results flagged for a closer look

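Irf8 stood at 2211 CPM (167 UMIs) in 8 unclassified male cells with Siglech of 3 or more UMIs, which the comparisons do not use. These cells held 4 Spi1 and 0 Maf UMIs. Siglech is a gene of plasmacytoid dendritic cells, but it was also at 138 CPM in macrophages and 110 CPM in cDC2. The type of these 8 cells was not tested.

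Irf8 stood at 413 CPM (278 UMIs) and Cebpb at 2663 CPM in 36 unclassified male cells with Mpo+Elane+Prtn3 of 5 or more UMIs, genes of granule proteins in early granulocytes, which were also outside the comparisons.

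Cebpb had a mean of 1299 CPM (1112, 1229 and 1557 in mouse 1, 2 and 3) in the 285 neutrophils set aside for Cd3d, below the 2579 to 3838 CPM of the neutrophils compared. The same cells had 0 Cd3e and 0 Trac UMIs, and 2311 Ly6g CPM against 891 in the other neutrophils. The limits of the first 2 groups were chosen after values were seen.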

How the results depend on the processing

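The factors were refitted under alternatives to each comparison, and 741 refits stayed on their side of the threshold, while 33 lost and 21 gained a call. The sign changed in 45 refits of factors that had not passed, of which 44 did not pass there either, and 1 did, Cebpb in neutrophils against monocytes, at 0.87 in cells thinned to 2000 UMIs. Genes called in the gate comparison (482) were 246 in thinned cells, 173 with gates and levels thinned, 247 in female mice and 203 to 273 without a mouse. Macrophages against monocytes (1763) gave 656 thinned, 613 in female mice and 1111 to 1564 without a mouse. For cDC1 against cDC2 (613) these were 121, 352 and 281 to 440, for neutrophils against monocytes (2399) 1074, 799 and 1467 to 2209, and for cDC2 against monocytes (835) 239, 279 and 402 to 644. B cells against T and NK cells (1273) gave 547 thinned and 650 to 1164 without a mouse. Thinned and female sums hold fewer UMIs and fewer genes passed the filter. Female against male (7) gave 101 with every gene that has a UMI and 5 to 54 without a mouse, 54 without male mouse 2. The interaction (0) gave 1 in DESeq2, 18 with every gene, 3 with the mouse as replicate block and 0 to 2 without a mouse. With this pairing of classes by mouse, the block gave 703, 1789, 611, 2412, 865 and 1318 calls in the 6 male comparisons in the order above, and among the 9 factors changed only the call of Klf4 in B cells against T and NK cells. Fits of the compared groups alone gave 556, 2460, 464, 2078, 672 and 911 calls in that order, and the number of genes tested changed as well. Female monocytes gave 2 sums.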
